A study of Mus musculus with 8 samples.

Results

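The clustered protocadherins of the mouse were followed in R1/E embryonic stem cells (ESCs) 48 h after they were transfected with esiRNA, which is a mixture of short interfering RNAs cut by an enzyme from longer double-stranded RNA. The tested cells received esiRNA against Rad21, 1 of the proteins that form the cohesin ring, and are called the knock-down. The control cells received a non-targeting esiRNA against luciferase and are called Luc. Each group had 4 arrays, which the sample labels describe as biological replicates. Both groups came from the same line, the same transfection protocol with 800 ng esiRNA per 80000 cells and the same time point. A knock-down leaves part of the target, and 1 cell line limits how far the values carry. Members were all probe sets whose platform annotation holds a symbol beginning with Pcdha, Pcdhb or Pcdhg. There were 35 such probe sets, naming 37 genes, among 45037 tested, 6 for the alpha cluster, 28 for the beta cluster and 1 for the gamma cluster.

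Clustered protocadherins are cell surface adhesion proteins known best from neurons, in which each cell uses its own combination of isoforms and tells its own branches from those of other cells. The genes lie in tandem on 1 chromosome. In the alpha and gamma clusters each variable exon has its own promoter and is spliced to constant exons shared by the whole cluster, whereas each beta gene is a single exon. In neurons the choice of promoter depends on looping between promoters and distant enhancers, for which the insulator protein CTCF and cohesin bind at both ends. Most of the promoters carry a conserved sequence element bound by CTCF, and those of Pcdhac2, Pcdhb1, Pcdhgc4 and Pcdhgc5 are known to lack it. The comparison therefore asks whether transcripts from these clusters shifted when a cohesin subunit was reduced in ESCs.

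The arrays covered the clusters unevenly. All 22 beta genes of the RefSeq mouse annotation had a probe set of their own, 17 of them with 1 and 5 with several. None of the 14 alpha genes did. The 6 alpha probe sets were annotated with several symbols, 3 with all 14 alpha genes and 3 with 9 of them, so they are described as shared by the cluster and numbered alpha shared 1 to 6 in order of their identifiers. Of 22 gamma genes only Pcdhgc4, the gene for a C-type isoform, was named on a probe set here, and the others were not analysed. The region lies on chromosome 18. The annotation does not say which promoter gave the transcript that a shared probe set detects. Beta genes are close relatives of each other, and cross-hybridisation between them was not tested.

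No clustered protocadherin changed past the test, and nearly all had values near the bottom of the range in knock-down and Luc alike. Over the 35 probe sets the array values ran from 1.86 to 4.12 in the knock-down and from 1.86 to 3.27 in Luc (GCRMA values, log2, 4 arrays per group). The medians of the group means were 2.52 in the knock-down and 2.49 in Luc. Of 280 single values 1 reached 4, a limit below which 57.9% of all probe sets had their mean. GCRMA, the authors' background correction and normalization, pulls dim probe sets to a low plateau that differs with the probe sequences. These levels therefore do not show that a transcript was present, nor that it was absent, and they do not rank the genes.

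**Figure D1:**
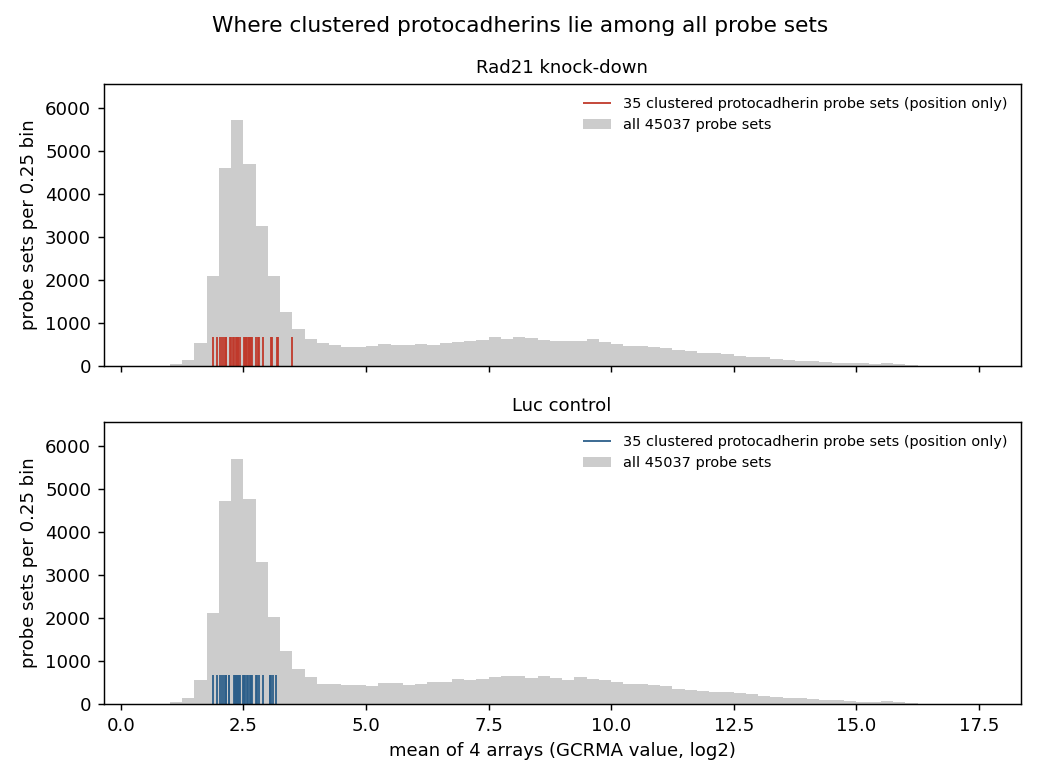
Histograms of the mean GCRMA value (log2, 4 arrays) of all 45037 probe sets in the Rad21 knock-down (upper) and in Luc (lower), with bars counting probe sets per bin and coloured ticks marking the 35 clustered protocadherin probe sets. The ticks fall inside the tall low peak in both groups, from 1.87 to 3.50 in the knock-down and from 1.87 to 3.17 in Luc.

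By limma with Benjamini-Hochberg adjustment over all probe sets, 0 of the 35 members were higher and 0 were lower in the knock-down at an adjusted p under 0.05, where the share called over all probe sets was 14.9% (6.47% higher and 8.4% lower). Of the members 0 also had an unadjusted p under 0.05, which 23.9% of all probe sets and 2.54% of those of like Luc level had. Among the 21475 probe sets whose Luc mean lay in the members' range, 1.87 to 3.17, the share called was 0.796%, with 159 higher (0.74%) and 12 lower (0.0559%). The 159 had a median log2 change of 1.09, and 93 of them rose at least 2-fold. A probe set at this level could thus pass the test by rising, but hardly by falling, and 0 of 35 was near this background. In cell extracts such as these, fewer cells with a transcript and less transcript per cell cannot be told apart.

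The members moved little between the groups. The median log2 change was 0.009 over the 35 members and 0.003 over all probe sets, and 32 members had a change between -0.033 and 0.032. Their signs were mixed, with 21 positive and 14 negative differences. The median SD within a group was 0.031 for the members and also 0.031 for the 21475 probe sets of like Luc level. Only alpha shared 1, Pcdhb3 and Pcdhb22 had larger differences. The 95% intervals of the log2 change, taken over the members other than these, reached from -0.09 to 0.12. They apply to values on the plateau, where GCRMA compresses differences, and do not bound the change of the transcripts themselves.

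**Figure D2:**
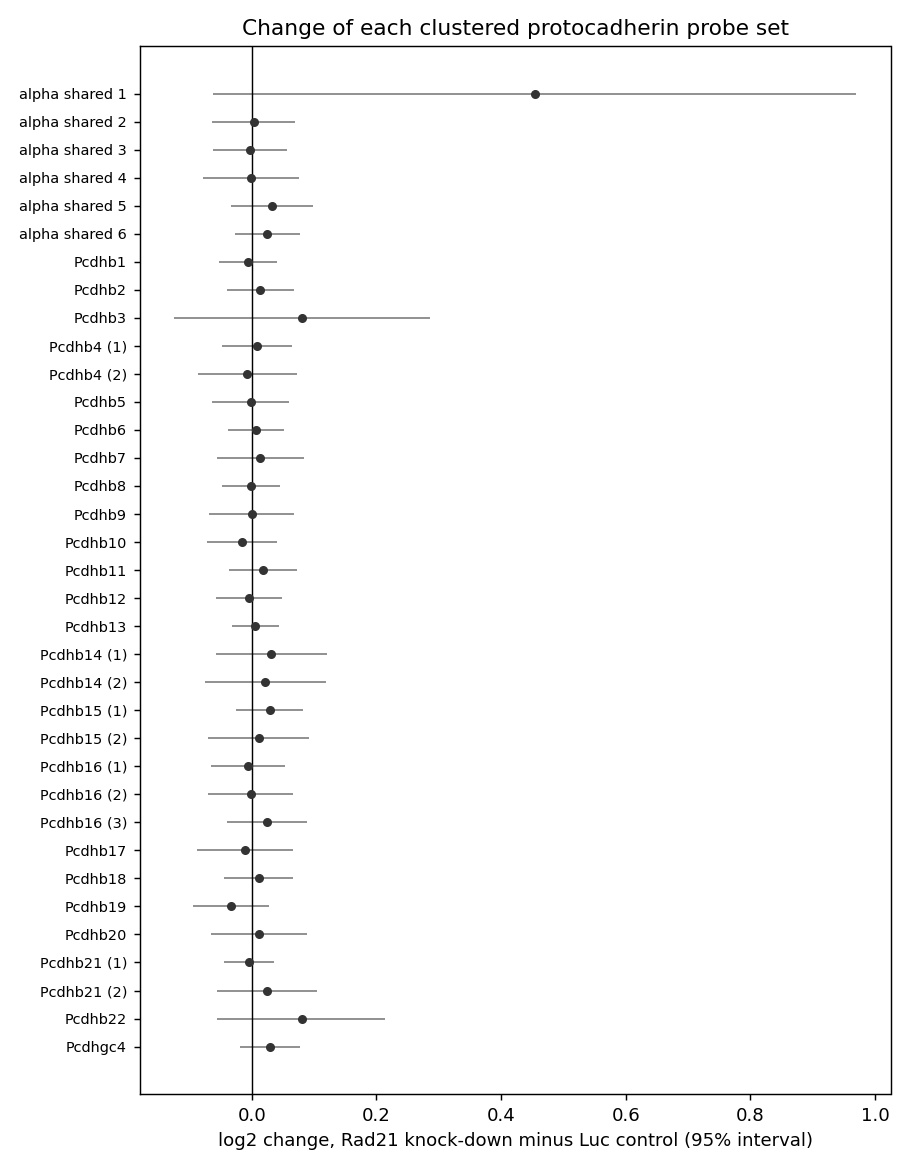
Log2 change of each of the 35 clustered protocadherin probe sets (Rad21 knock-down minus Luc, 4 arrays per group), in order along the clusters from top to bottom, with bars for the 95% interval of the limma fit; numbers in brackets tell probe sets of a gene apart. All intervals include 0, and alpha shared 1 has the largest change (0.45) and the widest interval.

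The alpha cluster held the largest difference. Alpha shared 1, annotated with all 14 alpha genes, had values of 4.12, 3.65, 3.10 and 3.12 in knock-down replicates 1 to 4, against 3.08, 3.02, 3.03 and 3.04 in Luc replicates 1 to 4. All 4 knock-down arrays lay above all 4 Luc arrays, replicates 1 and 2 clearly and replicates 3 and 4 by a few hundredths. The log2 change was 0.45 ± 0.22 (SE, n = 4 per group), with a 95% interval from -0.06 to 0.97 (limma, adjusted p = 0.285), so it was not called. It was the only member whose groups did not overlap, 2.86% of the members, where this held for 19.4% of all probe sets, for 8.75% with the knock-down higher, and for 2.72% of those of like Luc level. Without knock-down replicate 1 the log2 change was 0.25 (limma, adjusted p = 0.391).

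The difference at alpha shared 1 came mostly from replicates 1 and 2. Replicates 1 and 2 gave a change of 0.83, replicates 3 and 4 one of 0.08, and these did not differ past the threshold (limma interaction, adjusted p = 0.208). In a fit on replicates 1 and 2 alone the adjusted p of alpha shared 1 was 0.0501, the smallest under any setting and not a call. It was 0.143 on replicates 3 and 4 alone and 0.155 with the replicate set as a block (limma). The labels name no batch, but deviations from the group means correlated at 0.07 to 0.18 between knock-down and Luc arrays of replicates 1 and 2 (probe sets with a mean of 4 or more). The brightest Rad21 probe set had values of 11.69, 11.75, 12.37 and 12.52 in knock-down replicates 1 to 4, against 13.62, 13.42, 13.83 and 13.79 in the Luc replicates. Rad21 was thus lower in every knock-down array, and lowest in replicates 1 and 2. The log2 change was -1.58 ± 0.21 (SE; adjusted p = 0.00222), and those of its other 2 probe sets were -0.98 and -2.59 (adjusted p = 0.0114 and 1.64e-04). With replicates 3 and 4 only, the call at -0.98 was lost (adjusted p = 0.0659). Its changes were -1.09 in replicates 1 and 2 and -0.87 in replicates 3 and 4. At the brightest Rad21 probe set replicates 1 and 2 gave -1.80 and replicates 3 and 4 gave -1.36 (limma interaction, adjusted p = 0.201). The part of the depth of knock-down in the alpha value was not tested.

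The other 5 alpha probe sets did not share this difference. Alpha shared 2, which is also annotated with all 14 genes, had values of 2.41, 2.35, 2.38 and 2.42 in the knock-down against 2.43, 2.35, 2.42 and 2.35 in Luc. Its groups overlapped fully. Alpha shared 6, the remaining probe set with 14 symbols, had 2.48, 2.53, 2.52 and 2.54 in the knock-down and 2.52, 2.46, 2.49 and 2.50 in Luc. Alpha shared 3, 4 and 5, with 9 symbols each, had knock-down means of 2.58, 2.36 and 2.54 and Luc means of 2.58, 2.36 and 2.51. Over these 5 probe sets the log2 changes ran from -0.003 to 0.032, and the smallest adjusted p was 0.647.

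**Figure D3:**
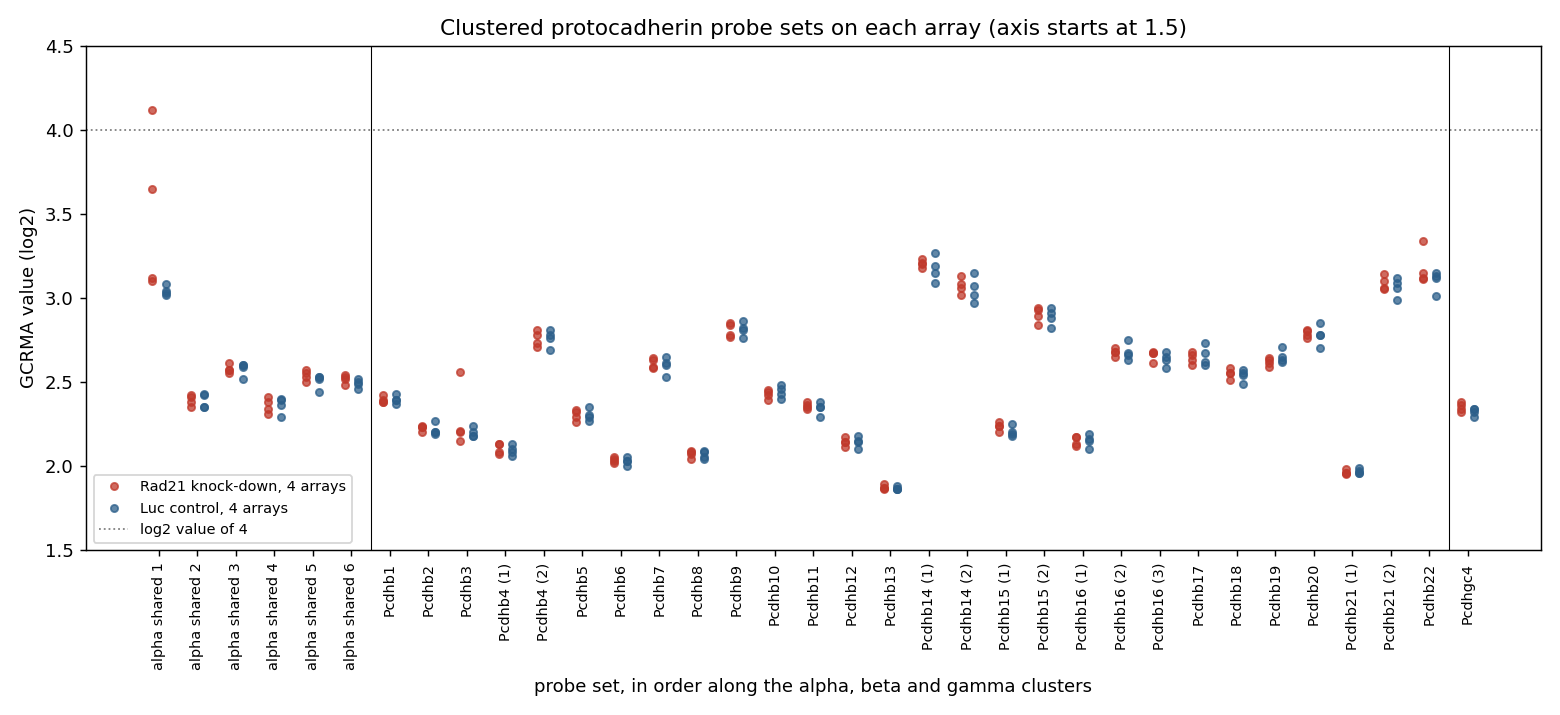
GCRMA values (log2) of the 35 probe sets on each array, knock-down (red) left of Luc (blue), in order along the alpha, beta and gamma clusters, with lines between the clusters and a dotted line at 4. The groups coincide at almost every probe set, and the points that stand away are knock-down replicates 1 and 2 of alpha shared 1 (4.12 and 3.65), replicate 1 of Pcdhb3 (2.56) and replicate 2 of Pcdhb22 (3.34).

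The beta cluster gave the only gene-by-gene view. Beta protocadherins are single-exon adhesion genes without the shared constant exons of the other clusters. Across its 28 probe sets the array values lay between 1.86 and 3.34 in the knock-down and between 1.86 and 3.27 in Luc. The log2 changes ran from -0.033 (Pcdhb19) to 0.080 (Pcdhb3 and Pcdhb22), with a median of 0.008, and the smallest adjusted p was 0.538. Of these differences 16 were positive and 12 negative, and all groups overlapped.

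The differences of Pcdhb3 and Pcdhb22 depended on single arrays. Pcdhb3 had values of 2.56, 2.15, 2.20 and 2.21 in the knock-down against 2.24, 2.18, 2.20 and 2.18 in Luc, so that only knock-down replicate 1 stood above the Luc range. Its log2 change was 0.080 ± 0.088 (SE, n = 4 per group; limma, adjusted p = 0.744). Pcdhb22, the last gene of the cluster, had 3.12, 3.34, 3.11 and 3.15 in the knock-down against 3.15, 3.01, 3.13 and 3.12 in Luc. Here knock-down replicate 2 alone lay above the others (log2 change 0.080 ± 0.057, SE; adjusted p = 0.538). The change of Pcdhb3 was -0.014 without knock-down replicate 1, and that of Pcdhb22 was 0.027 without knock-down replicate 2 and 0.049 without Luc replicate 2.

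Of the beta genes, 5 were read by several probe sets, and none of these showed a change. Pcdhb4, Pcdhb14, Pcdhb15, Pcdhb16 and Pcdhb21 had 11 probe sets, with log2 changes from -0.007 to 0.031, and the smallest adjusted p was 0.595. Pcdhb21 had knock-down and Luc means of 1.96 and 1.97 at its first probe set, and of 3.09 and 3.06 at its second. A Pcdhb14 probe set had 3.20, 3.18, 3.21 and 3.23 in the knock-down and 3.27, 3.09, 3.15 and 3.19 in Luc. Its knock-down values lay within the spread of Luc.

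Pcdhgc4, the 1 gamma gene measured, and Pcdhb1 are the members with a probe set of their own whose promoters are known to lack the CTCF-bound element. Pcdhgc4 had values of 2.32, 2.38, 2.36 and 2.34 in the knock-down, against 2.32, 2.29, 2.34 and 2.34 in Luc. Its log2 change was 0.029 ± 0.021 (SE, n = 4 per group; 95% interval -0.02 to 0.08; limma, adjusted p = 0.530). Pcdhb1 had 2.39, 2.38, 2.38 and 2.42 in the knock-down and 2.43, 2.37, 2.39 and 2.39 in Luc. At both genes the groups overlapped, as they did at the beta genes that carry the element.

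The small movements that the members did show ran in common across arrays. Luc replicate 2 held the lowest value of 26 of the 35 members (74.3%), and of a smaller share, 47.3%, of the probe sets of like Luc level. The median over the members was 2.50, 2.51, 2.52 and 2.54 in knock-down replicates 1 to 4, against 2.52, 2.44, 2.49 and 2.50 in Luc replicates 1 to 4. The corresponding medians of all dim probe sets in that range were 2.44, 2.44, 2.46 and 2.47 in the knock-down and 2.48, 2.42, 2.45 and 2.44 in Luc. Without Luc replicate 2 still 0 members were called (smallest adjusted p = 0.422).

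Genes next to the clusters were in large part well expressed. The 10 nearest named protein-coding genes on either side and the 2 between the beta and gamma clusters were all measured, and 16 of these 22 had a mean of 4 or more. Of the 22, 1 rose and 2 fell, with a median log2 change of -0.058, where 14.9% of all probe sets and 33.9% of those with a mean of 4 or more were called. The count of neighbours exceeds neither share. Hars2, a mitochondrial histidyl-tRNA synthetase on the alpha side, fell (-0.48 ± 0.06, SE, n = 4 per group; limma, adjusted p = 0.00199). On the gamma side Gnpda1, a glucosamine-6-phosphate deaminase, fell (-0.51 ± 0.10, adjusted p = 0.0111) and Rnf14, a ubiquitin ligase, rose (0.28 ± 0.05, adjusted p = 0.00638). Gnpda1 had 1 probe set, but Hars2 had 2 and Rnf14 had 4, of which only the brightest is given here. Fitted on 2 arrays per group, Hars2 was not called in replicates 3 and 4 (limma, adjusted p = 0.0785). Gnpda1 was not called in replicates 1 and 2 (0.0899), and Rnf14 in neither set (0.129 and 0.0711). Still the changes were alike in replicates 1 and 2 and in replicates 3 and 4. They were -0.52 and -0.44 for Hars2, -0.49 and -0.53 for Gnpda1, and 0.27 and 0.29 for Rnf14.

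Inside the region, between the beta and gamma clusters, a bright gene sat among dim ones. Taf7, which encodes a subunit of the general transcription factor TFIID, had 11.60, 11.55, 11.56 and 11.76 at its brightest probe set in the knock-down and 11.63, 11.65, 11.58 and 11.56 in Luc. The groups overlapped there (log2 change 0.010, limma adjusted p = 0.966). Its second probe set had 10.56, 10.59, 10.52 and 10.38 in the knock-down against 10.85, 10.98, 10.89 and 10.82 in Luc, a fall (-0.37 ± 0.06, SE; adjusted p = 0.00357), and the remaining probe set was not called (0.13, adjusted p = 0.559). With replicates 3 and 4 only, the call of the fall at the second probe set was lost (adjusted p = 0.0589). The change there was -0.41, against -0.34 in replicates 1 and 2. The probe sets of Taf7 thus disagree. Slc25a2, a mitochondrial carrier gene, lay on the plateau with means of 2.33 in the knock-down and 2.34 in Luc.

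**Figure D4:**
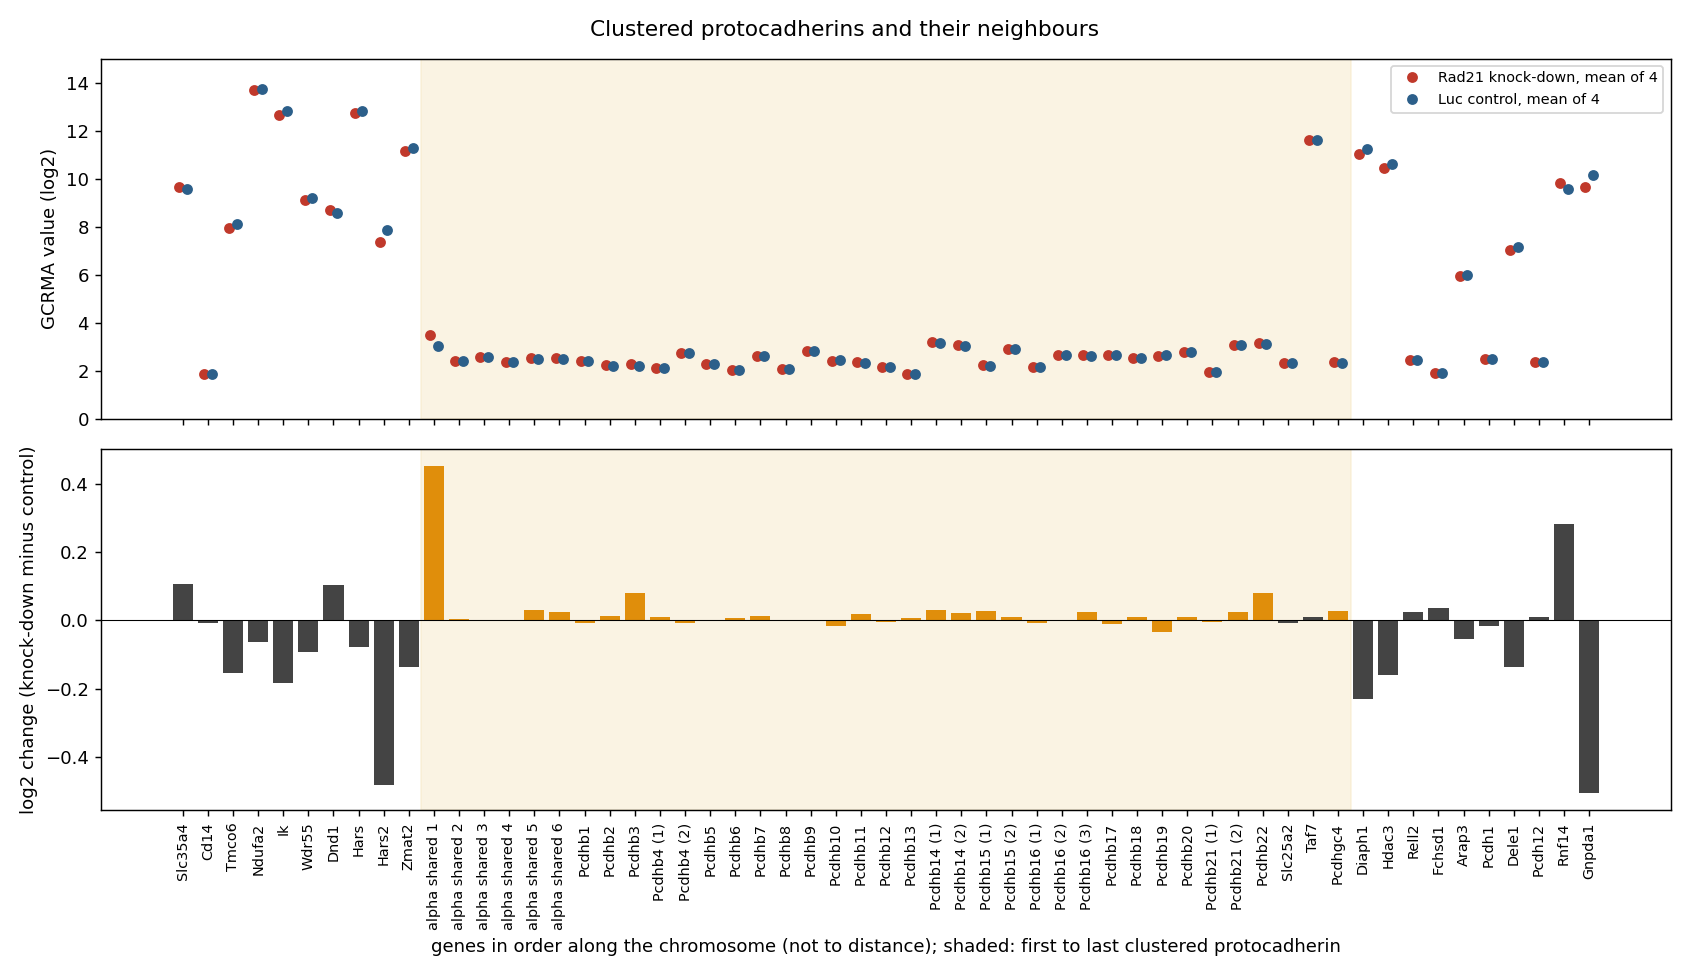
Mean GCRMA value (log2, 4 arrays; upper panel, knock-down red and Luc blue) and log2 change (lower panel, orange for clustered protocadherins, dark for other genes) in order along the chromosome, with the span of the clusters shaded; neighbours are shown by their brightest probe set. The shaded span is low in both groups apart from Taf7 (11.62 in the knock-down and 11.61 in Luc), and Hars2 (-0.48) and Gnpda1 (-0.51) have the deepest falls beside it.

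Protocadherins outside the clusters included some that rose. These genes stand alone in the genome, each with its own cytoplasmic part, and act in adhesion and cell movement in the embryo. Of 33 probe sets for 12 such genes 4 rose and 0 fell, all 4 belonging to Pcdh8 and Pcdh19, where 6.47% of all probe sets and 0.74% of those in the clustered members' Luc range rose. The other 29 had log2 changes between -0.03 and 0.15 and values between 1.64 and 3.67, much like the clustered members. Among them were Pcdh1 and Pcdh12, which lie on the gamma side of the clusters.

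Pcdh8, also called paraxial protocadherin, came off the plateau. Its brightest probe set had 6.21, 6.02, 4.60 and 4.91 in knock-down replicates 1 to 4, against 2.94, 2.84, 2.94 and 3.01 in Luc, so that it rose by 2.50 ± 0.36 log2 units (SE; limma, adjusted p = 0.00321). The second probe set had 6.10, 4.93, 4.82 and 5.28 against 2.97, 2.98, 2.99 and 3.01, with a log2 change of 2.30 ± 0.26 (adjusted p = 0.00108). The groups were far apart at both. Its first probe set rose by 3.23 in replicates 1 and 2 but by 1.78 in replicates 3 and 4, a difference that passed the test (interaction adjusted p = 0.0394), as it did for 0.777% of all probe sets. At the second it did not (2.54 and 2.06, adjusted p = 0.794).

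Pcdh19, an X-linked protocadherin, rose at 2 of its 3 probe sets. The brighter had 5.65, 5.27, 3.87 and 4.40 in the knock-down against 2.84, 2.80, 2.82 and 2.77 in Luc (log2 change 1.99 ± 0.365, SE; limma, adjusted p = 0.00944). The dimmer had 3.28, 3.76, 3.18 and 2.51 in the knock-down against 2.18, 2.18, 2.16 and 2.14 in Luc (1.02 ± 0.23, adjusted p = 0.0242), and this call ended without knock-down replicate 1 or 3 or any Luc array (highest adjusted p = 0.0656). With replicates 3 and 4 only, the adjusted p of the brighter was 0.0548 and that of the dimmer 0.257. Since the Luc values are on the plateau, the sizes of these rises are not settled. Whether the rise of Pcdh8 or Pcdh19 differs from the changes of the clustered genes was not tested.

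**Figure D5:**
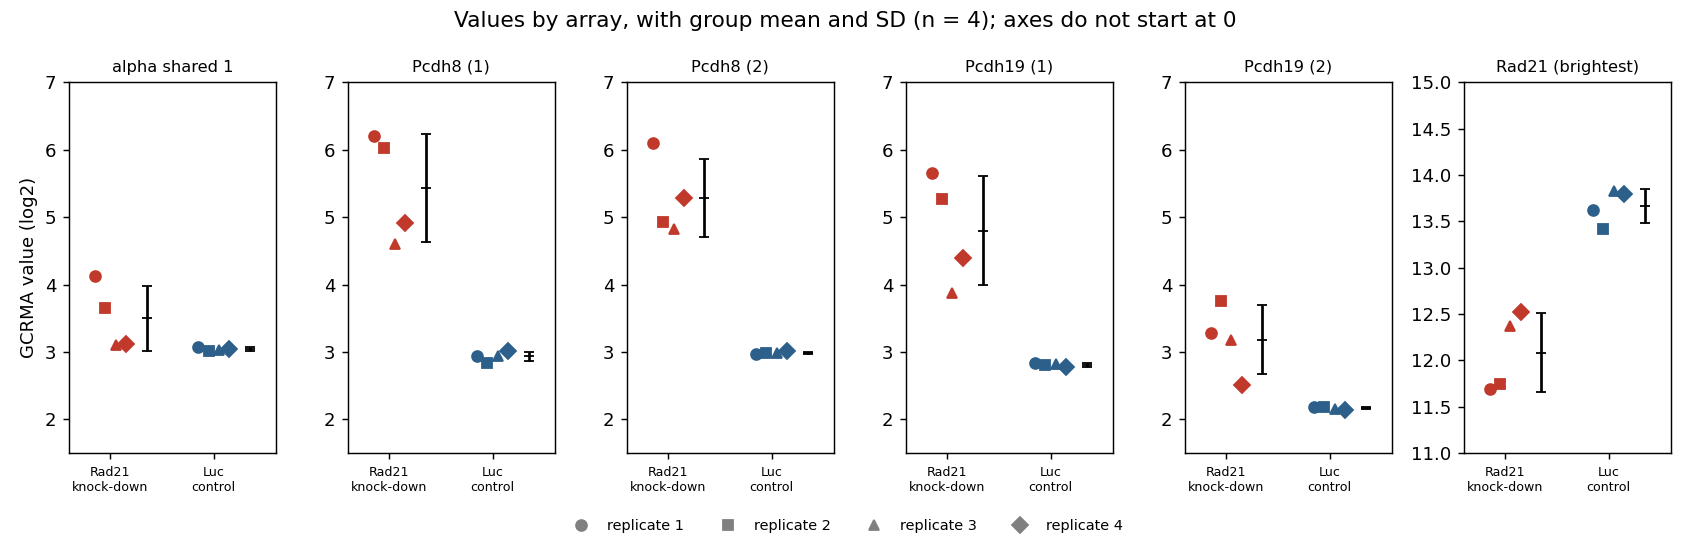
GCRMA values (log2) on each array for alpha shared 1, the called probe sets of Pcdh8 and Pcdh19 and the brightest Rad21 probe set, knock-down (red) left of Luc (blue), where symbols tell replicates apart and black bars give each group's mean ± SD. At alpha shared 1 and at the brightest Pcdh8 and Pcdh19 probe sets knock-down replicates 1 and 2 stand highest (4.12 and 3.65, 6.21 and 6.02, and 5.65 and 5.27), while Rad21 is lowest in them. At the second Pcdh8 probe set replicates 1 and 4 stand highest (6.10 and 5.28), and at the second Pcdh19 probe set replicates 2 and 1 (3.76 and 3.28).

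The regulators listed were factors known from mouse studies to bind or silence the clusters, together with Tet1, Tet2 and Tet3. They were nearly all present. Of 18 listed regulators 16 were measured and 15 of these had a mean of 4 or more. Of the 16, 2 rose and 5 fell, with a median log2 change of -0.024, against a share called of 33.9% over all probe sets with a mean of 4 or more, so that the count is near this background. Ctcf, which encodes the insulator protein itself, had means of 12.15 ± 0.02 in the knock-down and 12.04 ± 0.09 in Luc (SD, n = 4; log2 change 0.11, limma adjusted p = 0.159), without overlap but short of a call. Smchd1, a chromatin protein whose loss derepresses clustered protocadherins in mice, rose (0.53 ± 0.06, SE; adjusted p = 7.48e-04). Atf7ip, the partner of the histone H3 lysine methyltransferase Setdb1, rose as well (0.33, adjusted p = 0.0316), but this call ended without knock-down replicate 1 or 2 or any Luc array (highest adjusted p = 0.0858).

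The repressors Setdb1 (-0.47 ± 0.04, SE; limma, adjusted p = 1.83e-04), Ehmt2, another histone methyltransferase (-0.49 ± 0.06, adjusted p = 0.00164), and Rest, the silencer of neuronal genes (-0.62 ± 0.05, adjusted p = 3.00e-04), fell. With replicates 3 and 4 only, the call of Ehmt2 was lost (adjusted p = 0.128), at a change of -0.38 against -0.59 in replicates 1 and 2. Tet2 (-1.52 ± 0.10, adjusted p = 8.91e-05) and Tet1 (-0.58 ± 0.10, adjusted p = 0.00751), which oxidise methylated cytosine, fell too. The DNA methyltransferase genes Dnmt3a (0.38, adjusted p = 0.0764), Dnmt3b (0.06) and Dnmt1 (-0.06) and the remodeller gene Hells (-0.06) did not pass the test.

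Genes whose products cut or bind clustered protocadherins were mostly expressed as well. Of 20 listed 17 were measured, 4 rose and 0 fell, and the median log2 change was 0.054. Since 14 of the 17 had a mean of 4 or more, where 33.9% of all probe sets were called, the count of 4 does not exceed the background. Adam10, the protease that sheds their outer part, rose (0.41 ± 0.08, SE, n = 4 per group; limma, adjusted p = 0.00964), as did Wasf1 (0.33 ± 0.06, adjusted p = 0.00633) and Abi2 (0.29 ± 0.05, adjusted p = 0.00688) of the WAVE actin regulatory complex. All 3 calls were lost with replicates 1 and 2 only (adjusted p = 0.0962, 0.0746 and 0.106). The receptor kinase gene Ret rose near the plateau (0.66, adjusted p = 0.0426), a call that ended whichever single array was left out (highest adjusted p = 0.0862). It also ended with replicates 1 and 2 only (limma, adjusted p = 0.141), with replicates 3 and 4 only (0.239) and after quantile normalization (0.0761).

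The cells carried the marks of their label. All 10 ESC markers had means over both groups of 10.63 or more, and 8 fell and 0 rose in the knock-down, with Fgf4, Klf4, Esrrb, Nanog and Pou5f1 leading. Over all probe sets 14.9% were called (8.4% lower), and 33.9% of those with a mean of 4 or more. These shares also stand beside the neural and feeder counts below, where 10 of 15 and 4 of 10 markers had such a mean. The call of Utf1 was lost without knock-down replicate 2 or 4 or Luc replicate 1 or 3 (highest limma adjusted p = 0.0647). It was also lost with replicates 1 and 2 only (limma, adjusted p = 0.192), and the call of Dppa5a with replicates 3 and 4 only (0.147). Of 15 neural markers 3 rose (Neurod1, Nefl and Map2) and 4 fell (Ncam1, Gap43, Stmn2 and Tubb3), and their mean level per array was 6.70 to 6.85 in the knock-down and 6.81 to 6.87 in Luc. The call of Map2 was lost without knock-down replicate 1, 2 or 4 or Luc replicate 3 or 4 (highest limma adjusted p = 0.0858), and that of Nefl without knock-down replicate 2 or Luc replicate 4 (0.0547 and 0.0537). Levels differed widely among the 15 neural markers, of which 10 had a mean of 4 or more. Stmn2 and Nefl had Luc means of 13.97 and 11.39, whereas the neuronal gene Dcx stayed on the plateau, at 2.67 in both groups. The study's methods state that the ESCs were kept without feeder cells. Of 10 feeder fibroblast markers Acta2 and Vim rose and Thy1 fell, and their mean level per array was 5.75 to 5.91 in the knock-down and 5.42 to 5.5 in Luc. The fibroblast matrix genes Col1a1, Col1a2, Dcn and Lum had means between 2.32 and 2.77. Col3a1, another, had 4.69, 4.25, 3.11 and 3.42 in the knock-down against 3.15, 3.10, 3.03 and 3.0 in Luc (log2 change 0.80, limma adjusted p = 0.189), with its highest values in knock-down replicates 1 and 2, as at alpha shared 1. Fn1, the gene for fibronectin, had means of 12.15 in the knock-down and 12.21 in Luc (adjusted p = 0.850). Pearson correlations over probe sets between arrays of 1 group were 0.998 to 0.999. The part of these markers in the values above was not tested.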

How the data were processed

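The authors read Affymetrix mouse arrays and deposited log2 expression values made with GCRMA in Partek Genomics Suite 6.4. No scanner files or detection calls were used here. After 64 control probe sets were left out, 45037 were fitted with limma 3.58.1 (lmFit and eBayes, R 4.3.3), knock-down minus Luc, without a block. All tests were two-sided, with Benjamini-Hochberg adjustment over all probe sets and a call at an adjusted p under 0.05. The study's methods state an analysis of variance, which was run as an alternative. Symbols came from the platform annotation. RefSeq genes of GRCm38.p6 gave the gene order only. Other genes are represented by their brightest single-symbol probe set. Named are all shared probe sets, Rad21, called list genes (up to 5 in each direction) and genes inside the clusters. Pcdhb1, Pcdhb2, Pcdhb3, Pcdhb4, Pcdhb14, Pcdhb15, Pcdhb16, Pcdhb19, Pcdhb21, Pcdhb22, Pcdhgc4, Ctcf, the other uncalled regulators and the uncalled markers were named after their values were seen. Members and lists were chosen with earlier results of these data known. The fit was tested on simulated data with independent errors for each value. Those data lacked the deviations that arrays share here, so the test does not cover them. The number of arrays limits the precision, and p-values measure the spread between these arrays, which the labels call biological replicates. Alternatives covered the normalization, the variance model, blocks, filters, the threshold and each array left out. Plots were drawn with matplotlib 3.10.9.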

Additional observations from a re-analysis of the deposited data

Results flagged for a closer look

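Among 70 groups of 4 arrays of the clustered protocadherin probe sets, 5 had 1 array far from the other 3 by Dixon's criterion, where chance gives about 1 in 20. These were knock-down replicate 1 at Pcdhb3 (2.56, nearest 2.21) and at a Pcdhb16 probe set (2.61, nearest 2.67), knock-down replicate 4 at Pcdhb1 (2.42, nearest 2.39), Luc replicate 1 at Pcdhb2 (2.27, nearest 2.20) and Luc replicate 2 at alpha shared 5 (2.44, nearest 2.52). Apart from Pcdhb3 each lay within 0.08 of its neighbour on the log2 scale. Among 90 groups of the other probe sets named, 4 had such an array. These were knock-down replicate 1 at Smchd1 (11.60, nearest 11.78), knock-down replicate 3 at Ret (4.51, nearest 4.01), knock-down replicate 2 at Gap43 (7.69, nearest 7.86) and Luc replicate 3 at Ehmt2 (10.45, nearest 10.64). The change of the brightest Pcdh8 probe set was smaller in replicates 3 and 4 than in replicates 1 and 2, by a difference of -1.44 on the log2 scale (limma interaction, adjusted p = 0.0394).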

How the results depend on the processing

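The count of 0 called members held under all 21 settings, the one reported included, that tested members, with at most 1 member at an unadjusted p under 0.05 and a smallest adjusted p of 0.0501 (limma, replicates 1 and 2 alone). With a minimum mean of 4 no member was left to test. The plain analysis of variance also called 0, with 0 at an unadjusted p under 0.05. Outside the clusters it lost the calls of Atf7ip (adjusted p = 0.0718), Ret (0.0936), Map2 (0.0731), Utf1 (0.0554) and the dimmer Pcdh19 probe set (0.0613). Centring arrays on bright probe sets turned the sign of 13 uncalled members, all with small differences, and moved the median change of the members to 0.038 and of all probe sets to 0.032. It also split the calls over all probe sets into 3385 higher and 3390 lower, against 2913 and 3784 without it. At an adjusted p under 0.01, 3893 of 45037 probe sets were called, against 6697 at 0.05. Called genes outside the clusters numbered 34 over all lists and 26 to 40 under the alternatives. No call that was followed gene by gene changed its direction. The feeder markers Acta2, Vim and Thy1 were in the counts but were not followed in this way.

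With the replicate number as a block, 0 members, 35 genes of the lists and 6224 probe sets were called. Same-numbered arrays of the 2 groups had deviations correlated at 0.07, 0.17, 0.08 and 0.17, which neither establishes nor excludes pairing by number. Across the groups, arrays within replicates 1 and 2 or within replicates 3 and 4 correlated at 0.07 to 0.25 and arrays across these sets at -0.22 to -0.07. Deviations from a group mean cancel out within the group, so the negative values follow in part from the positive ones. With the replicate set as a block, 0 members, 39 genes of the lists and 8177 probe sets were called.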
